A study of Mus musculus with 18 samples.

Results

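The diet effect that Pd3 and Pd7 ovaries had in common was measured in 12 of the 18 libraries of the series, 6 from F1-HHcy and 6 from F1-Control females. F1-HHcy females were born to C57BL/6J dams that ate a chow with 3% methionine (w/w), which raises homocysteine in blood (hyperhomocysteinemia, HHcy), and F1-Control females to dams on normal chow. All females were wild type and were not fed the diet themselves: their dams ate it before mating, through gestation and through lactation, so at Pd3 and Pd7 (postnatal days 3 and 7) pups of both groups were still nursing. Each diet had 3 whole-ovary libraries at Pd3 and 3 at Pd7, all 12 labelled batch 1, and the other 6 libraries, of Pd21, were labelled batch 2. The members, these 12 libraries, were chosen by those labels, though earlier results of these data were known. Both days entered 1 additive model in which the day was a covariate, so that a gene was called for a difference between the diets and not for a difference between the days.

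In the mouse ovary of this age, germ cell cysts break apart and each oocyte is enclosed by flattened pregranulosa cells to form a primordial follicle, most of which stay dormant while a first wave begins to grow at once. Growing oocytes make the proteins of the zona pellucida and secreted factors such as BMP15, and their granulosa cells express the FSH receptor, AMH and gap junction proteins. Hedgehog ligands made by granulosa cells act on Ptch1 and Gli1 in the surrounding stroma, where theca cells arise and make androgen through Cyp17a1.

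The unit is FPKM, a read count corrected for the length of the gene and the depth of the library, and 33630642 to 37059406 fragments were counted per library. Replicates of a group correlated at r = 0.9834 for the first and second F1-HHcy Pd3 libraries, while the third F1-HHcy Pd3 library stood apart from these at 0.9399 and 0.9581 (log2 scale, across genes). The second F1-Control Pd7 library had an FPKM total of 532003, against 400360 to 446830 in the other 11. The summed level of 18 erythroid markers was 4079 to 12012 FPKM in F1-Control and 805 to 1114 FPKM in F1-HHcy libraries at Pd3, and 929.6 to 6014 and 289.6 to 506 FPKM at Pd7, and the diets did not overlap on either day. The 14 granulocyte markers summed to 302 to 1148 FPKM in F1-Control and 9.53 to 154 FPKM in F1-HHcy libraries at Pd3, and to 16.7 to 352 and 1.30 to 26.2 FPKM at Pd7. Their part in the results on other genes was not tested. The ovarian markers Foxl2, of granulosa cells (45.7 to 61.9 FPKM (median 54.1) in F1-Control and 54.9 to 74.7 FPKM (median 61.9) in F1-HHcy libraries), and Ddx4, of germ cells (13.2 to 21.9 FPKM (median 19.5) in F1-Control and 5.85 to 16.4 FPKM (median 8.61) in F1-HHcy libraries), were present in all 12 libraries. Of 9 adrenal cortex markers 4 reached the filter of 1 FPKM in at least 3 libraries, Cyp11b1 and Cyp21a1 not among them, and the list is given with the steroid genes.

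Of 13998 genes tested with limma on log2(FPKM + 1), 1087 (7.77%) were higher and 1446 (10.3%) lower in F1-HHcy ovaries at a Benjamini-Hochberg adjusted p under 0.05, or 2533 (18.1%) in either direction. Of the genes called higher, 1086 had an effect above 0 on each day taken alone, and all 1446 called lower had an effect below 0 on each day, as a common effect selects for. The 6 libraries of a day did not overlap between the diets, on both days and in the same direction, for 561 of the genes called higher and 707 of those called lower, while over all tested genes such a separation was seen for 627 (4.48%) upward, 779 (5.57%) downward and 251 (1.79%) in opposite directions on the 2 days. The common fit called genes that neither day called alone: 377 of the 1087 and 578 of the 1446 missed the adjusted threshold at both Pd3 and Pd7, whereas 319 and 298 passed it at Pd3 and 505 and 673 at Pd7. Of the called genes with log2 effects beyond 0.58, 662 genes (4.73%) were higher and 631 (4.51%) lower. The genes called higher had a median log2 fold change of 0.66 (0.59 at Pd3 and 0.70 at Pd7) and those called lower of -0.53 (-0.48 and -0.58), against -0.01 over all tested genes. Counts of called list members below are to be read beside the 7.77% higher and 10.3% lower of all tested genes, and no list was tested as a set. A value in brackets directly after a gene symbol is its log2 fold change in the common fit, F1-HHcy against F1-Control.

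**Figure D1:**
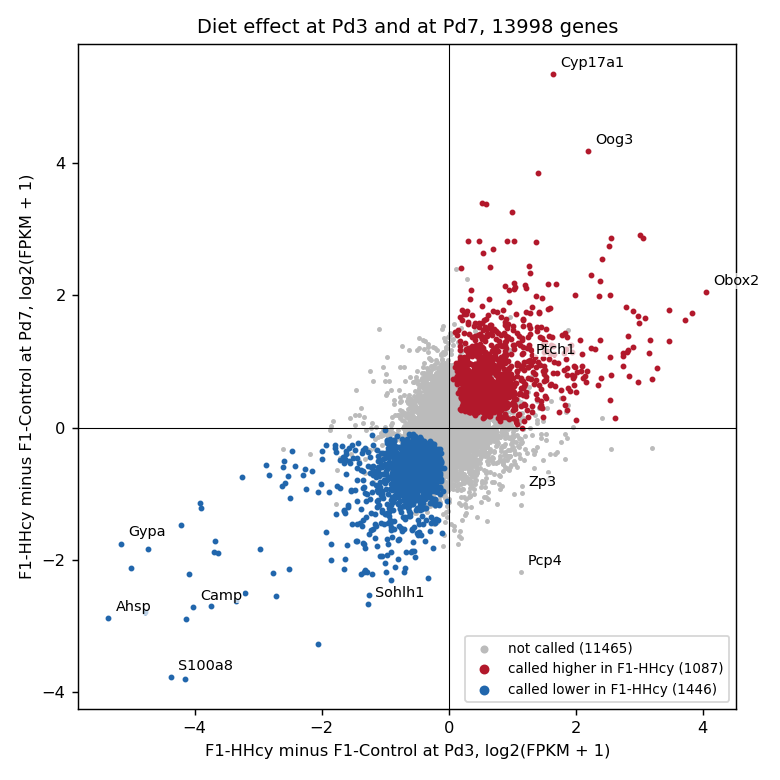
Diet effect (log2 fold change, F1-HHcy against F1-Control) at Pd3 on the horizontal axis and at Pd7 on the vertical axis for the 13998 tested genes, one point per gene, with the 1087 genes called higher and the 1446 called lower in the common fit coloured. The called genes lie at the upper right and lower left, since a gene that moved one way at Pd3 and the other at Pd7 averages out.

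These counts depended on single libraries. Without the first F1-HHcy Pd3 library 689 genes were higher and 835 lower, and without the first F1-HHcy Pd7 library 681 and 835. Genes called lower numbered 847 without the second F1-HHcy Pd7 library, 941 without the second F1-Control Pd3 library and 921 without the first F1-Control Pd7 library. Without the third F1-HHcy Pd3 library, which stood apart from its replicates, the counts were 1493 and 1872.

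Among called genes without overlap between the diets on either day and at 5 FPKM or more in the higher diet, with 12 uncharacterised genes left out, the 10 largest rises were mainly of oocyte-expressed multigene families: Oog3, Oog4, Obox1, Obox2, Obox5, Pramel25, Pramel26, Pramel27 and Pramel29, and in addition Ccl21a, a chemokine of lymphatic vessels. Close copies of the Oog, Obox and Pramel genes can share reads, so the split among them is uncertain. The promoters of Oog3, which led this ranking, and of the growth factor gene Bmp15 are shown because the E box, which the oocyte factors SOHLH1 and FIGLA bind with their partners, lies in both, and its matches to the letters CANNTG (the same on both strands) are in capitals. Each runs 5′ to 3′ from 250 bases before to 50 bases after the RefSeq start of the gene in GRCm38.p6. An E box stood in 64.0% of the matched promoters of all tested genes, and its part in these rises was not tested.
Oog3, chr4:144162602-144162901, strand -: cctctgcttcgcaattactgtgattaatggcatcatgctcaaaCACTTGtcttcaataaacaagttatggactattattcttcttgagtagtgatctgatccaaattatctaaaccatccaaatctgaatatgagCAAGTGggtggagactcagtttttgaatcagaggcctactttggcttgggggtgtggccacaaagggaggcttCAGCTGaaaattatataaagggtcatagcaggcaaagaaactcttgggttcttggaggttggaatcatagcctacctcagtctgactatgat
Bmp15, chrX:6320675-6320974, strand -: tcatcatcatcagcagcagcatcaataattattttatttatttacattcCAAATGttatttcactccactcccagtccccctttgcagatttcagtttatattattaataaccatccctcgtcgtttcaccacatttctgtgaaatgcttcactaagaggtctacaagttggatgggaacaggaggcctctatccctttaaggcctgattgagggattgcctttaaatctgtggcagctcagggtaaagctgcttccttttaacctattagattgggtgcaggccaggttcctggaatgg

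At Pd3, Oog3 was listed at 0, 0 and 0 FPKM in the F1-Control and 9.94, 1.16 and 3.11 FPKM in the F1-HHcy libraries. At Pd7 it measured 0.68, 0.839 and 2.31 FPKM in the F1-Control and 39.6, 31.2 and 45.2 FPKM in the F1-HHcy libraries. No F1-Control library reached the lowest F1-HHcy library of its day, and the F1-Control libraries of Pd3 were listed at 0 throughout, so the fitted difference (log2 fold change 3.19 ± 0.41 (SE), limma adjusted p = 0.00145) is no fold against that day. Pramel29, a member of the PRAME family, measured 0.124, 0.0917 and 0.14 FPKM in the F1-Control and 17.4, 5.41 and 5.23 FPKM in the F1-HHcy libraries at Pd3. At Pd7 Pramel29 measured 2.67, 3.39 and 5.42 FPKM in the F1-Control and 34, 25.3 and 46.3 FPKM in the F1-HHcy libraries (log2 fold change 2.96 ± 0.25 (SE), limma adjusted p = 0.00027). In the plot of single genes by library, Bmp15 at Pd3 measured 1.17, 0.707 and 1.80 FPKM in the F1-Control and 34, 20.1 and 3.70 FPKM in the F1-HHcy libraries, the third F1-HHcy library being the lowest of its group. At Pd7 Bmp15, the oocyte-secreted factor that acts on granulosa cells, measured 14.3, 14.8 and 26.3 FPKM in the F1-Control and 64.1, 56.1 and 77.3 FPKM in the F1-HHcy libraries, again without overlap (log2 fold change 2.31 ± 0.39 (SE), limma adjusted p = 0.00387). Obox1, a homeobox gene of oocytes, was at 0, 0.0917 and 0.0234 FPKM in the F1-Control and 42, 17 and 0.977 FPKM in the F1-HHcy libraries at Pd3, a range within the F1-HHcy group wider than that of any F1-Control group of the gene (log2 fold change 2.63 ± 0.59 (SE), limma adjusted p = 0.0115). The log2 fold change of Obox2 was 3.05, with 2.44 without the first and 3.63 without the third F1-HHcy Pd3 library, and limma-voom on fragments gave it an adjusted p of 0.0623.

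Of 25 growing oocyte genes, 10 rose, none fell and 19 had an effect above 0, and the list's median log2 fold change was 1.01 at both days together, 1.62 at Pd3 and 0.16 at Pd7, larger at Pd3 than at Pd7. The risers were Bmp15, Oosp1, Oosp3, Omt2a, Omt2b, Zar1, Bcl2l10, Obox1, Oog1 and Pabpc1l. Zar1, a maternal-effect RNA regulator, showed this in single libraries: at Pd3 it was at 7.12, 9.17 and 14.1 FPKM in the F1-Control and 86.8, 78.5 and 40.8 FPKM in the F1-HHcy libraries, and at Pd7 at 51.8, 91.6 and 88 FPKM in the F1-Control and 76.7, 61.6 and 119 FPKM in the F1-HHcy libraries. The Pd7 libraries of Zar1 overlapped between the diets and those of Pd3 did not (log2 fold change 1.38 ± 0.41 (SE), limma adjusted p = 0.0344). Oosp3, an oocyte-secreted protein, was at 0.352, 0.0691 and 0.494 FPKM in the F1-Control and 23.7, 12.6 and 1.65 FPKM in the F1-HHcy libraries at Pd3. At Pd7 Oosp3 measured 10.7, 14.1 and 18.1 FPKM in the F1-Control and 37.7, 35.6 and 28.6 FPKM in the F1-HHcy libraries, without overlap on either day (log2 fold change 2.05 ± 0.46 (SE), limma adjusted p = 0.0114). Gdf9, the partner of BMP15, ranged over 33.5 to 294 FPKM (median 81.6) in F1-Control and 83.9 to 312 FPKM (median 183) in F1-HHcy libraries, and its diet groups overlapped (log2 fold change 1.04 ± 0.35 (SE), limma adjusted p = 0.052). The zona pellucida genes Zp2 (log2 fold change -0.01) and Zp3 (0.08) did not pass in the common fit, and their effects at Pd3 and Pd7 had opposite signs. For 5 of the 25 the diet effect differed between the days (limma interaction, adjusted p under 0.05), against 0.514% of all tested genes. The 25 summed to 1494 to 2191 FPKM in F1-Control and 2660 to 4307 FPKM in F1-HHcy libraries at Pd3. At Pd7 the sums were 3453 to 5486 and 2659 to 3710 FPKM. Limma-voom on fragments called 7 of the list higher. Calls lost in fits that left out 1 library were those of Omt2b (9 of 12, up to 0.0792), Zar1 (7 of 12, up to 0.0809) and Bcl2l10 (8 of 12, up to 0.0838). Without 1 library the call ended for Oosp1 (without the second F1-Control Pd3 library, adjusted p up to 0.0504).

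Genes of dormant and meiotic germ cells fell together. Of 17 tested germ cell and primordial oocyte markers, 12 fell and none rose (median -0.88 at both days together, -0.89 at Pd3 and -1.25 at Pd7), of 21 meiotic prophase genes 11 fell and none rose (median -0.58), and of 14 piRNA pathway genes 12 fell and none rose (median -0.85). Rec8, Sycp1, Sycp3, Mael and Ddx4 stand in more than 1 of these lists. In bulk libraries of a whole ovary, fewer cells of a type and less RNA per cell cannot be told apart. The promoters of Sohlh1, a basic helix-loop-helix factor of primordial oocytes, and of Sycp1, which forms the transverse filaments of the synaptonemal complex, are shown for comparison with those of the rising oocyte genes, E boxes again in capitals.
Sohlh1, chr2:25847199-25847498, strand -: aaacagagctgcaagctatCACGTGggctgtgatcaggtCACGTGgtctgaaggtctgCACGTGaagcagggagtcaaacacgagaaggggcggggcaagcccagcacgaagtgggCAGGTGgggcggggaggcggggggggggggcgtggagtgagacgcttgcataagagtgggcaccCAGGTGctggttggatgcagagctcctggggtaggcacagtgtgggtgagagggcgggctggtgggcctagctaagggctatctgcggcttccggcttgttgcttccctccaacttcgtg
Sycp1, chr3:102936051-102936350, strand -: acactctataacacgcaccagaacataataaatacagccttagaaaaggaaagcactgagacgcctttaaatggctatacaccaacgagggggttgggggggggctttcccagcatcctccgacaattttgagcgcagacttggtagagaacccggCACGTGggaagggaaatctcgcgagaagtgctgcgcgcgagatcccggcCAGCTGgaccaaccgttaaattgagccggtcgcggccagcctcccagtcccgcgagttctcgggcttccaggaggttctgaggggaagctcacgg

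Sohlh1 at Pd3 measured 92.5, 89.8 and 96.5 FPKM in the F1-Control and 18.7, 42.7 and 67.9 FPKM in the F1-HHcy libraries, with the third F1-HHcy library closest to the F1-Control libraries. At Pd7 it measured 51.7, 66.6 and 28.6 FPKM in the F1-Control and 5.61, 7.33 and 6.52 FPKM in the F1-HHcy libraries, where every F1-HHcy library lay below the lowest F1-Control library (log2 fold change -1.97 ± 0.32 (SE), limma adjusted p = 0.0033). Figla, the factor that directs primordial follicle formation and zona gene transcription, was at 66, 68.3 and 55.3 FPKM in the F1-Control and 20.8, 43.7 and 60.7 FPKM in the F1-HHcy libraries at Pd3, where the third F1-HHcy library lay within the F1-Control range. At Pd7 Figla was at 50.9, 78.6 and 31.1 FPKM in the F1-Control and 11.5, 9.90 and 9.55 FPKM in the F1-HHcy libraries, with no overlap (log2 fold change -1.44 ± 0.31 (SE), limma adjusted p = 0.0104). Ddx4, the germ cell RNA helicase also called MVH, fell on both days without overlap (13.2 to 21.9 FPKM (median 19.5) in F1-Control and 5.85 to 16.4 FPKM (median 8.61) in F1-HHcy libraries, log2 fold change -0.86 ± 0.14 (SE), limma adjusted p = 0.00355). Dazl, an RNA-binding translation regulator of germ cells, fell by 0.88 on the log2 scale, with Lhx8 at -1.04, Sohlh2 at -1.49 and Pou5f1 at -0.88. Kit, the receptor through which granulosa cells signal to the oocyte, ranged over 25.7 to 73.5 FPKM (median 52.8) in F1-Control and 15.3 to 65.5 FPKM (median 21.8) in F1-HHcy libraries (log2 fold change -0.83 ± 0.22 (SE), limma adjusted p = 0.023). The call for Kit was lost without the first F1-HHcy Pd7, the second F1-HHcy Pd7 or the first F1-Control Pd7 library (adjusted p 0.0537, 0.0533 and 0.0541), and its ligand Kitl did not pass (log2 fold change -0.14 ± 0.14 (SE), limma adjusted p = 0.518). Nobox (-0.70) and Tbpl2 (-0.74), other transcription factors of oocytes, did not pass either.

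Sycp1 measured 38.2, 44.2 and 22.9 FPKM in the F1-Control and 3.98, 8.71 and 15 FPKM in the F1-HHcy libraries at Pd3. At Pd7 Sycp1 measured 8.74, 9.60 and 5.46 FPKM in the F1-Control and 2.41, 1.92 and 1.53 FPKM in the F1-HHcy libraries, where levels in F1-Control ovaries were lower than at Pd3 and those in F1-HHcy ovaries lower still (log2 fold change -1.75 ± 0.25 (SE), limma adjusted p = 0.00206). Rec8, the meiotic cohesin kleisin, ranged over 6.66 to 29.8 FPKM (median 18.7) in F1-Control and 2.34 to 12.5 FPKM (median 4.01) in F1-HHcy libraries and did not overlap between the diets on either day (log2 fold change -1.54 ± 0.23 (SE), limma adjusted p = 0.0025). Smc1b, another meiotic cohesin subunit, was at 68.7, 61 and 61.2 FPKM in the F1-Control and 13.7, 30.9 and 46.4 FPKM in the F1-HHcy libraries at Pd3. At Pd7 Smc1b measured 35.1, 41.5 and 22.9 FPKM in the F1-Control and 6.44, 6.53 and 5.60 FPKM in the F1-HHcy libraries (log2 fold change -1.70 ± 0.27 (SE), limma adjusted p = 0.00272). The mismatch repair gene Mlh3 (0.03) did not pass. Of the piRNA pathway, Piwil2, an Argonaute protein that binds piRNAs, was at 32, 27 and 33.1 FPKM in the F1-Control and 5.28, 11.7 and 23.8 FPKM in the F1-HHcy libraries at Pd3. At Pd7 Piwil2 measured 12.9, 12.3 and 7.03 FPKM in the F1-Control and 2.12, 2.54 and 2.45 FPKM in the F1-HHcy libraries (log2 fold change -1.55 ± 0.26 (SE), limma adjusted p = 0.00369). Mael, Tdrd1, Tdrd9, Gpat2, Gtsf1, Mov10l1, Asz1, Pld6, Tdrkh, Tdrd7 and Ddx4 fell too, by between 0.38 (Tdrd7) and 1.59 (Mov10l1) on the log2 scale, leaving Tdrd5 and Henmt1 as the tested members that did not pass. Calls lost in fits that left out 1 library were those of Asz1 (9 of 12, up to 0.077), Tdrkh (9 of 12, up to 0.1) and Tdrd7 (8 of 12, up to 0.0676).

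**Figure D2:**
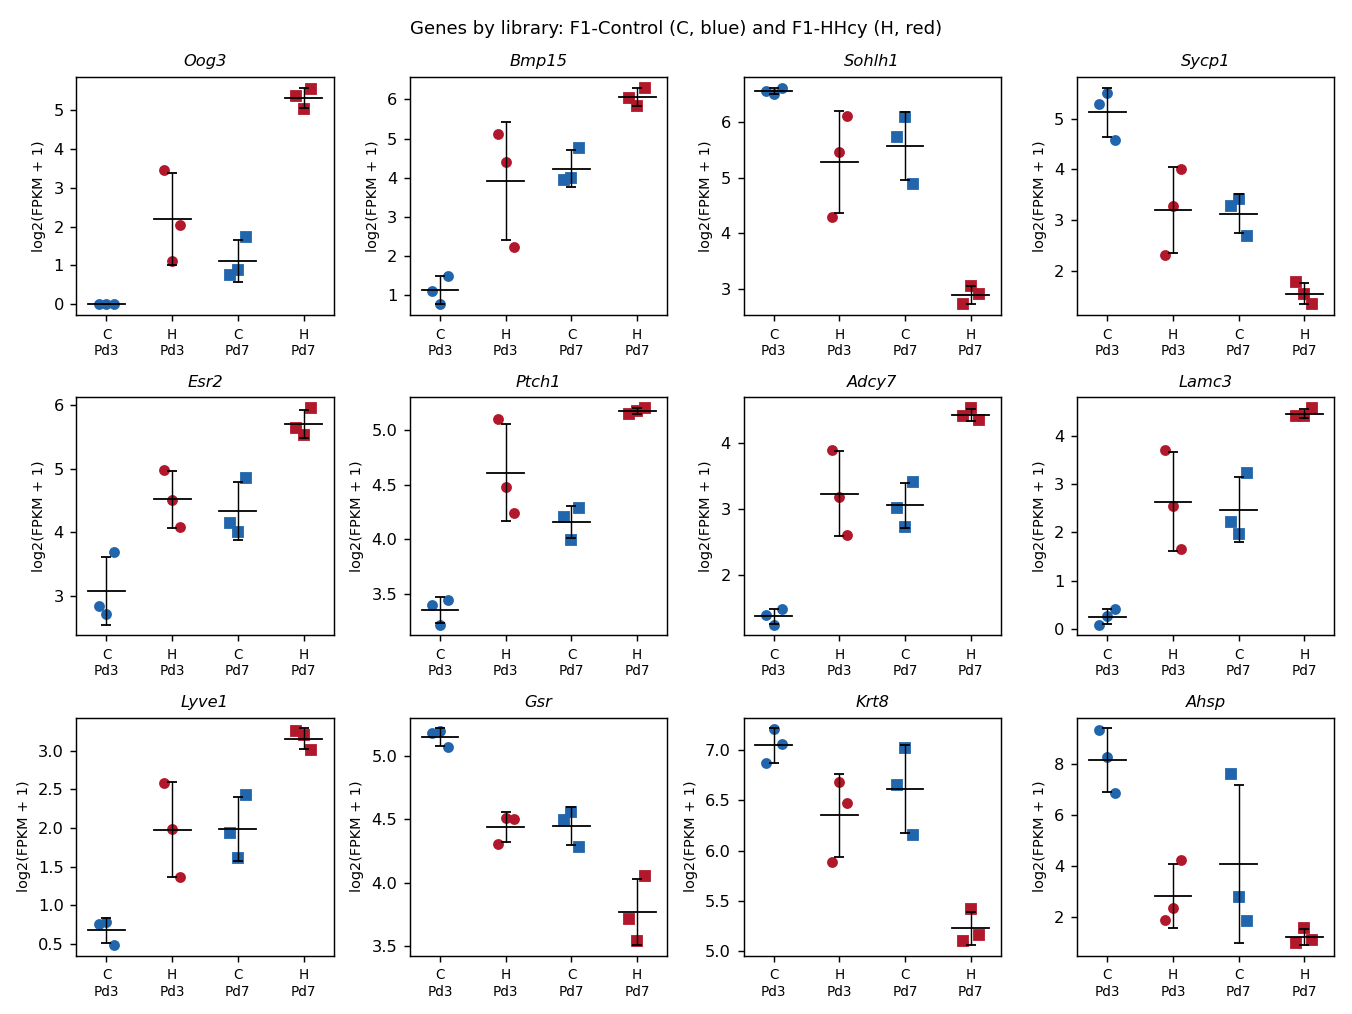
Level, as log2(FPKM + 1), of 12 genes in the 12 libraries, one point per library, with lines at the mean of the 3 libraries of a diet and day and bars for the SD. Oog3, Bmp15, Esr2, Ptch1, Adcy7, Lamc3 and Lyve1 are higher in F1-HHcy on both days and Sohlh1, Sycp1, Gsr, Krt8 and Ahsp lower, and the third F1-HHcy Pd3 library is often the one nearest to the F1-Control libraries.

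Of 20 granulosa and pregranulosa markers 9 rose and 3 fell (median 0.31 at both days together, 0.45 at Pd3 and 0.30 at Pd7). The members that rose belong to granulosa cells of growing follicles (Amh, Fshr, Inha, Inhba, Nr5a2, Hsd17b1, Cyp19a1, Gja1 and Esr2), and those that fell were Rspo1, Lgr5 and Cdkn1b. Esr2 encodes the oestrogen receptor of granulosa cells, and its promoter is shown as the example from this cell type, E boxes in capitals.
Esr2, chr12:76177210-76177509, strand -: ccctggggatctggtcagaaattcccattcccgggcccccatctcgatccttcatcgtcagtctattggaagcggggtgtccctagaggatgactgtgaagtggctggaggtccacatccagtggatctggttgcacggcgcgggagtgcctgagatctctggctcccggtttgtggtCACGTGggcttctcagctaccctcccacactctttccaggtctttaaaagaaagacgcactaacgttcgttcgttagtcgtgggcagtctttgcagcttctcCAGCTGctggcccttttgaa

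Esr2 was at 6.11, 5.53 and 11.8 FPKM in the F1-Control and 30.4, 21.6 and 15.8 FPKM in the F1-HHcy libraries at Pd3. At Pd7 Esr2 measured 16.7, 15.1 and 27.8 FPKM in the F1-Control and 48.8, 45.2 and 60.9 FPKM in the F1-HHcy libraries, with no overlap on either day (log2 fold change 1.41 ± 0.20 (SE), limma adjusted p = 0.00206). Inha, the inhibin alpha subunit, was at 34.2, 35.1 and 34.6 FPKM in the F1-Control and 211, 106 and 79.9 FPKM in the F1-HHcy libraries at Pd3. At Pd7 Inha measured 70.2, 99.6 and 242 FPKM in the F1-Control and 264, 267 and 448 FPKM in the F1-HHcy libraries, the third F1-Control Pd7 library coming near the F1-HHcy libraries (log2 fold change 1.59 ± 0.29 (SE), limma adjusted p = 0.00519). That same F1-Control Pd7 library was the highest of its group for Amh, the hormone that restrains follicle recruitment, which measured 1.65, 2.08 and 2.51 FPKM in the F1-Control and 99.7, 35.2 and 9.72 FPKM in the F1-HHcy libraries at Pd3. At Pd7 Amh measured 20.5, 23.8 and 76.1 FPKM in the F1-Control and 68, 60.5 and 146 FPKM in the F1-HHcy libraries, and there the groups overlapped (log2 fold change 2.39 ± 0.55 (SE), limma adjusted p = 0.0127). Gja1, the connexin 43 of granulosa gap junctions, ranged over 36.7 to 152 FPKM (median 66) in F1-Control and 74.8 to 371 FPKM (median 202) in F1-HHcy libraries (log2 fold change 1.41 ± 0.23 (SE), limma adjusted p = 0.00325). Cdkn1b, the cell cycle inhibitor p27, ranged over 41.8 to 142 FPKM (median 92.6) in F1-Control and 33.8 to 82.2 FPKM (median 39.5) in F1-HHcy libraries, lower in F1-HHcy ovaries on both days without overlap (log2 fold change -0.84 ± 0.19 (SE), limma adjusted p = 0.011). Rspo1, a Wnt enhancer of the female gonad, was at 58.1, 63.4 and 61.2 FPKM in the F1-Control and 25.5, 44.6 and 43.2 FPKM in the F1-HHcy libraries at Pd3. At Pd7 Rspo1 measured 45, 33.8 and 23 FPKM in the F1-Control and 16.6, 19.8 and 11.2 FPKM in the F1-HHcy libraries (log2 fold change -0.87 ± 0.19 (SE), limma adjusted p = 0.00973). Foxl2, the factor that maintains granulosa identity, did not pass (log2 fold change 0.22 ± 0.11 (SE), limma adjusted p = 0.162). Of 15 nuclear receptors, 5 rose and none fell, among them Esr2, Nr5a2 (1.45), Nr2f2 (0.81), which marks stroma, and Esrrb (0.83). Esr1 (-0.48) and Nr5a1 (0.07) did not pass. Calls lost in fits that left out 1 library were those of Hsd17b1 (6 of 12, up to 0.0698) and Cyp19a1 (7 of 12, up to 0.0681).

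Of 13 tested hedgehog genes, 7 rose and none fell (median 0.51 at both days together, 0.62 at Pd3 and 0.38 at Pd7). Ihh, a ligand of granulosa cells, measured 0, 0.00915 and 0.0374 FPKM in the F1-Control and 4.42, 1.09 and 0.304 FPKM in the F1-HHcy libraries at Pd3. At Pd7 Ihh measured 0.312, 0.371 and 3.47 FPKM in the F1-Control and 4.04, 5.04 and 8.67 FPKM in the F1-HHcy libraries, the third F1-Control Pd7 library again being the highest of its group (log2 fold change 1.5 ± 0.36 (SE), limma adjusted p = 0.0149). Dhh, the other granulosa ligand, did not pass (log2 fold change 0.76 ± 0.28 (SE), limma adjusted p = 0.0764), nor did the signal transducer Smo (log2 fold change 0.23 ± 0.10 (SE), limma adjusted p = 0.114). Ptch1, receptor and target, was at 9.55, 8.34 and 9.90 FPKM in the F1-Control and 33.3, 21.3 and 18 FPKM in the F1-HHcy libraries at Pd3. At Pd7 Ptch1 measured 17.4, 15 and 18.5 FPKM in the F1-Control and 34.3, 35 and 35.7 FPKM in the F1-HHcy libraries (log2 fold change 1.13 ± 0.13 (SE), limma adjusted p = 0.000931). The narrow Pd7 ranges of Ptch1 left a gap between the diets wider than either group. Gli1, the transcription factor that the pathway induces, was at 2.18, 5.49 and 6.96 FPKM in the F1-Control and 24.6, 18.5 and 11.9 FPKM in the F1-HHcy libraries at Pd3. At Pd7 Gli1 measured 17.2, 13.5 and 17.1 FPKM in the F1-Control and 25.1, 25 and 22 FPKM in the F1-HHcy libraries (log2 fold change 1.17 ± 0.26 (SE), limma adjusted p = 0.0122). Hhip (1.49), Gli2 (0.55) and the inhibitor Sufu (0.51) rose too. Among 16 theca and stromal progenitor markers 9 rose and none fell (median 0.72 at both days together, 0.99 at Pd3 and 0.33 at Pd7), among them Gli1, Ptch1 and Hhip and besides them Nr2f2, Tcf21, Pdgfra, Col1a2 and Enpep, while the abundant stromal genes Mgp (0.07), Col3a1 (0.02) and Dcn (-0.02) did not pass. For 1 of the 16 the diet effect differed between Pd3 and Pd7 (limma interaction, adjusted p under 0.05). Leaving out 1 library at a time took the adjusted p above 0.05 for Tcf21 (5 of 12, up to 0.0618).

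Of 22 genes of androgen and steroid synthesis, 12 rose and none fell, and the median log2 fold change was 0.67 at both days together, 0.28 at Pd3 and 0.85 at Pd7. Cyp17a1, which makes androgen, was at 0.787, 0.576 and 0.665 FPKM in the F1-Control and 43.3, 1.06 and 0.552 FPKM in the F1-HHcy libraries at Pd3, where the first F1-HHcy library stood far above the other 5. At Pd7 Cyp17a1 was at 0.837, 0.599 and 9.03 FPKM in the F1-Control and 169, 175 and 64.3 FPKM in the F1-HHcy libraries, without overlap (log2 fold change 3.49 ± 0.87 (SE), limma adjusted p = 0.0176). Cyp11a1, the side-chain cleavage enzyme that begins steroid synthesis, was at 0.435, 0.569 and 0.517 FPKM in the F1-Control and 19.5, 1.32 and 0.324 FPKM in the F1-HHcy libraries at Pd3, again with the first F1-HHcy library high. At Pd7 Cyp11a1 measured 0.813, 1.5 and 9.72 FPKM in the F1-Control and 58.4, 50.9 and 46 FPKM in the F1-HHcy libraries (log2 fold change 2.63 ± 0.66 (SE), limma adjusted p = 0.0175). Both lost their calls with no filter on low values (adjusted p 0.0591 for Cyp17a1 and 0.0585 for Cyp11a1). The log2 fold change of Cyp17a1 was 3.01 without the first and 4.08 without the third F1-HHcy Pd3 library. Scarb1, the receptor that takes up cholesterol from HDL, ranged over 12.4 to 19.7 FPKM (median 13.6) in F1-Control and 12.9 to 39.1 FPKM (median 28.3) in F1-HHcy libraries (log2 fold change 0.74 ± 0.16 (SE), limma adjusted p = 0.0102). Fdx1, the electron donor of mitochondrial P450 enzymes, rose by 0.87 on the log2 scale. Hao2, a hydroxy acid oxidase that the list counts although it is not itself a steroid synthesis enzyme, rose by 1.29. Hsd3b1, an abundant dehydrogenase of steroid-making cells, ranged over 88.8 to 420.5 FPKM (median 174) in F1-Control and 61.6 to 1009 FPKM (median 750.3) in F1-HHcy libraries (log2 fold change 1.38 ± 0.42 (SE), limma adjusted p = 0.0381), and lost its call in 9 of the 12 fits that left out a library (adjusted p up to 0.0839). The luteinizing hormone receptor Lhcgr (log2 fold change 1.59 ± 0.49 (SE), limma adjusted p = 0.0405) lost its call in 8 of these. Akr1cl, an aldo-keto reductase among the most abundant genes called higher, was at 249.7, 268 and 287 FPKM in the F1-Control and 836, 579.9 and 452 FPKM in the F1-HHcy libraries at Pd3. At Pd7 Akr1cl measured 508, 540.4 and 769.9 FPKM in the F1-Control and 1134, 1190.1 and 1106 FPKM in the F1-HHcy libraries (log2 fold change 1.05 ± 0.15 (SE), limma adjusted p = 0.00206). Of the 4 tested markers of the adrenal cortex, which also makes steroids, 2 rose (Hsd3b1, which the steroid list holds too, and Mrap at 0.81) and none fell, with a median of 0.60 at both days together, 0.17 at Pd3 and 1.02 at Pd7. All 9 listed members summed to 99.8 to 153 FPKM in F1-Control and 73.8 to 617 FPKM in F1-HHcy libraries at Pd3, and to 217 to 432 and 921 to 1025 FPKM at Pd7, and the part of adrenal tissue in the steroid genes was not tested. Star (0.38), which delivers cholesterol into mitochondria, did not pass. In fits without 1 library, calls were lost for Mrap (9 of 12, up to 0.107).

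Of 7 adenylate cyclases, which make cyclic AMP, 4 rose and all 7 had an effect above 0 (median 0.60 at both days together, 0.43 at Pd3 and 0.79 at Pd7). Adcy7 was at 1.61, 1.36 and 1.78 FPKM in the F1-Control and 13.9, 8.04 and 5.09 FPKM in the F1-HHcy libraries at Pd3. At Pd7 Adcy7 measured 7.07, 5.63 and 9.63 FPKM in the F1-Control and 20.2, 22 and 19.3 FPKM in the F1-HHcy libraries, with no overlap (log2 fold change 1.62 ± 0.19 (SE), limma adjusted p = 0.000931). Adcy5 (1.18 (limma adjusted p = 0.00638)), Adcy4 (0.61 (limma adjusted p = 0.0173)) and Adcy9 (0.60 (limma adjusted p = 0.0122)) rose, and Adcy6, Adcy3 and Adcy2 did not pass. Among 19 phosphodiesterases and cyclic GMP genes 5 rose and 2 fell. Pde7b, which degrades cyclic AMP, ranged over 1.42 to 5.15 FPKM (median 1.82) in F1-Control and 4.32 to 9.33 FPKM (median 7.05) in F1-HHcy libraries, higher in F1-HHcy on both days without overlap (log2 fold change 1.20 ± 0.14 (SE), limma adjusted p = 0.000931). The natriuretic peptide Nppc (0.90), its receptor Npr2 (0.53) and Npr1 (0.59), a receptor of other natriuretic peptides, rose with the guanylate cyclase subunit Gucy1b1 (0.60). Calls lost in fits that left out 1 library were those of Nppc (8 of 12, up to 0.0794) and Npr2 (7 of 12, up to 0.0727).

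In the PDGF group the receptors Pdgfra (1.08) and Pdgfrb (0.96) and the ligand Pdgfc (0.82) rose and the ligand Pdgfa (-0.56) fell. Pdgfra was at 8.34, 11.6 and 11.6 FPKM in the F1-Control and 46.1, 42.5 and 32 FPKM in the F1-HHcy libraries at Pd3. At Pd7 Pdgfra measured 37.9, 35.9 and 47.5 FPKM in the F1-Control and 57.2, 61.4 and 37.5 FPKM in the F1-HHcy libraries, the 2 diets overlapping only at Pd7 (log2 fold change 1.08 ± 0.25 (SE), limma adjusted p = 0.0128). For 1 of the 7 tested PDGF genes the diet effect differed between Pd3 and Pd7 (limma interaction, adjusted p under 0.05). Pdgfra is plotted below with such genes, and its common value does not describe both days. Of 32 TGF beta and BMP family genes 9 rose and none fell (median 0.20), among them the receptors Tgfbr2 (0.46), Tgfbr3 (0.90), Bmpr1b (0.64) and Bmpr2 (0.40), and the target Id3 (0.79). Of 26 Wnt and R-spondin genes 3 rose, 7 fell and 16 did not pass (median -0.11). Those that fell included Wnt6 (-0.95), the receptors Lgr4 (-0.57) and Lgr5 (-0.97), the target Axin2 (-0.56) and the inhibitor Sfrp2 (-1.42), while Lgr6 (0.96), Rspo2 (0.68) and Dkk3 (0.64) rose. Of 30 genes of the PI3K pathway, which governs dormancy of the primordial oocyte, 2 rose (Pik3cd at 0.86 and Foxo1 at 1.05) and 5 fell (Kit, Cdkn1b, Pik3r3 at -0.83, Pik3cb at -0.35 and Akt2 at -0.30). The other 23 did not pass and the median was -0.05, while 7.77% of all tested genes were called higher and 10.3% lower. The Hippo targets Ccn2 and Ccn1 were the risers among 20 Hippo genes, and Ccn2 was at 5.39, 5.70 and 7.18 FPKM in the F1-Control and 36.1, 12.9 and 21.6 FPKM in the F1-HHcy libraries at Pd3. At Pd7 Ccn2 measured 11.8, 7.21 and 15 FPKM in the F1-Control and 51.2, 52.7 and 53.8 FPKM in the F1-HHcy libraries (log2 fold change 1.93 ± 0.22 (SE), limma adjusted p = 0.000931). In the IGF axis Igf1r (0.62) and Igfbp7 (0.85) rose and Igf2 (-1.31) and Igfbp2 (-0.70) fell, and of 17 Notch genes Notch3 and Hey2 rose and Hes1 and Hes6 fell. Leaving out 1 library at a time took the adjusted p above 0.05 for Pdgfc (4 of 12, up to 0.0576), Bmpr1b (5 of 12, up to 0.0578), Lgr4 (3 of 12, up to 0.0599), Axin2 (9 of 12, up to 0.0874), Foxo1 (3 of 12, up to 0.0578), Pik3cb (10 of 12, up to 0.116), Akt2 (9 of 12, up to 0.0943), Igf1r (4 of 12, up to 0.0692), Igfbp2 (3 of 12, up to 0.0585), Notch3 (3 of 12, up to 0.0518), Hey2 (10 of 12, up to 0.0913) and Hes6 (5 of 12, up to 0.0725). Leaving out a single library ended the call for Ccn1 (without the first F1-Control Pd3 library or the second F1-Control Pd7 library, adjusted p up to 0.0511).

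Of 20 basement membrane genes 7 rose, 1 fell and 12 did not pass, and 18 had an effect above 0 (median 0.36 at both days together, 0.32 at Pd3 and 0.30 at Pd7). Lamc3, a laminin gamma chain, was at 0.0703, 0.217 and 0.336 FPKM in the F1-Control and 12, 4.88 and 2.16 FPKM in the F1-HHcy libraries at Pd3. At Pd7 Lamc3 measured 3.67, 2.93 and 8.34 FPKM in the F1-Control and 20.1, 20.1 and 22.6 FPKM in the F1-HHcy libraries, separating the diets on both days (log2 fold change 2.18 ± 0.29 (SE), limma adjusted p = 0.00169). Col4a3, a collagen IV chain, was at 0.446, 0.662 and 0.838 FPKM in the F1-Control and 6.25, 4.70 and 1.88 FPKM in the F1-HHcy libraries at Pd3. At Pd7 Col4a3 measured 4.43, 1.87 and 5.72 FPKM in the F1-Control and 10.5, 10.3 and 6.03 FPKM in the F1-HHcy libraries (log2 fold change 1.31 ± 0.25 (SE), limma adjusted p = 0.00689), and its neighbour in the same collagen network, Col4a4, had a log2 fold change of 1.60 (limma adjusted p = 0.00527). The widespread chains Col4a1 (0.25) and Lamc1 (0.28) did not pass. Of 35 matrix glycoproteins 11 rose, none fell and 24 did not pass (median 0.17 at both days together, 0.43 at Pd3 and 0.11 at Pd7), with Vcan, the large proteoglycan versican, at 3.18, 3.93 and 5.65 FPKM in the F1-Control and 32.8, 15.8 and 7.56 FPKM in the F1-HHcy libraries at Pd3. At Pd7 Vcan measured 13.3, 12.1 and 29.4 FPKM in the F1-Control and 38.4, 37.9 and 27.5 FPKM in the F1-HHcy libraries (log2 fold change 1.35 ± 0.31 (SE), limma adjusted p = 0.0127). For Vcan the third F1-HHcy Pd7 library lay within the F1-Control range. Fn1, fibronectin, rose by 0.71, and the small leucine-rich proteins Omd by 1.86, Ogn by 1.33 and Aspn by 1.25 on the log2 scale. Of 27 other collagens 7 rose (Col11a1 at 1.26 and Col6a4 at 1.11 the most), 2 fell and 18 did not pass. Of 25 matrix proteases and inhibitors 7 rose, with the plasminogen activator Plau at 1.15, and 2 fell, Adamts16 at -1.07 and Mmp15 at -0.79. Itgb3 (1.39), Itga1 and Itga9 rose and Itga6 fell among 16 integrin subunits. Of 17 tight junction genes 4 rose, Cldn11 (1.09) the most, and 2 fell, Cldn6 (-0.72) and F11r (-0.32). In fits without 1 library, calls were lost for Itga1 (8 of 12, up to 0.0857), Cldn11 (3 of 12, up to 0.0527) and F11r (4 of 12, up to 0.0657). The omission of 1 library was enough to end the call for Aspn (without the first F1-HHcy Pd7 library or the second F1-HHcy Pd7 library, adjusted p up to 0.052).

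Of 21 endothelial markers 11 rose, none fell, 10 did not pass and all 21 had an effect above 0 (median 0.38 at both days together, 0.53 at Pd3 and 0.37 at Pd7). Lyve1, a receptor of lymphatic endothelium and of some macrophages, was at 0.686, 0.728 and 0.404 FPKM in the F1-Control and 5.02, 2.96 and 1.57 FPKM in the F1-HHcy libraries at Pd3. At Pd7 Lyve1 measured 2.82, 2.05 and 4.37 FPKM in the F1-Control and 8.56, 8.22 and 7.05 FPKM in the F1-HHcy libraries, with no overlap (log2 fold change 1.23 ± 0.19 (SE), limma adjusted p = 0.00257). Flt4, the VEGF receptor of lymphatic endothelium, ranged over 0.525 to 1.99 FPKM (median 0.841) in F1-Control and 1.12 to 6.58 FPKM (median 3.88) in F1-HHcy libraries (log2 fold change 1.10 ± 0.18 (SE), limma adjusted p = 0.00355). Ccl21a, the lymphatic chemokine among the largest rises, was at 3.73, 1.35 and 4.66 FPKM in the F1-Control and 53.4, 24 and 7.89 FPKM in the F1-HHcy libraries at Pd3. At Pd7 Ccl21a measured 16, 17.5 and 28.6 FPKM in the F1-Control and 147, 142 and 132 FPKM in the F1-HHcy libraries (log2 fold change 2.64 ± 0.35 (SE), limma adjusted p = 0.00169), and its close copies can share reads. The endothelial cadherin Cdh5 rose by 0.75 on the log2 scale, and Pecam1 (0.37) and Kdr (0.16) did not pass. Of 17 pericyte and smooth muscle markers 5 rose, none fell and 12 did not pass (median 0.44). Those that rose were Myh11 (1.02), Smtn (0.85), Mylk (0.76), Cspg4 (0.71) and Notch3 (0.59). Of 8 tested adipocyte markers, 15 being listed, 5 rose and 1 fell. A low gene could meet the filter through the diet where it was higher, as Plin1 did, so this count is not independent of the filter. Plin1, which coats lipid droplets, was at 0.0963, 0.257 and 0.124 FPKM in the F1-Control and 3.05, 0.824 and 0.379 FPKM in the F1-HHcy libraries at Pd3. At Pd7 Plin1 measured 0.773, 0.74 and 1.75 FPKM in the F1-Control and 4.84, 5.60 and 5.59 FPKM in the F1-HHcy libraries, without overlap (log2 fold change 1.27 ± 0.24 (SE), limma adjusted p = 0.00589), and Adipoq (0.40), a defining adipocyte hormone, did not pass. Calls lost in fits that left out 1 library were those of Myh11 (8 of 12, up to 0.0803).

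Of 16 erythroid markers 15 fell and none rose (median -2.20 at both days together, -2.82 at Pd3 and -1.25 at Pd7), and of 10 tested granulocyte markers 5 fell and none rose (median -1.62). Among called genes without overlap on either day and at 5 FPKM or more in the higher diet, with 27 uncharacterised ones left out, the 10 largest falls included Ahsp, Car2, Camp, Slc4a1, Hba-a2, Hbb-bt, Crygb, Hba-a1 and Hbb-bs, of which all but Camp and Crygb are genes of red cells. Ahsp, the chaperone of alpha globin, was at 652, 312 and 116 FPKM in the F1-Control and 2.64, 4.08 and 17.6 FPKM in the F1-HHcy libraries at Pd3. At Pd7 Ahsp measured 198, 5.75 and 2.56 FPKM in the F1-Control and 0.953, 1.93 and 1.10 FPKM in the F1-HHcy libraries, where the third F1-Control library lay close to the F1-HHcy libraries (log2 fold change -4.12 ± 0.88 (SE), limma adjusted p = 0.00973). The log2 fold change of Ahsp was -3.47 without the first and -4.75 without the third F1-Control Pd7 library. That of Camp, a neutrophil peptide, was -3.36 and -3.98 without the second F1-Control Pd7 library. Hbb-bs, an adult beta globin, was at 5804, 3278 and 2164 FPKM in the F1-Control and 510.3, 620.2 and 411 FPKM in the F1-HHcy libraries at Pd3. At Pd7 Hbb-bs measured 2887, 899.6 and 574 FPKM in the F1-Control and 184, 319 and 261 FPKM in the F1-HHcy libraries (log2 fold change -2.48 ± 0.35 (SE), limma adjusted p = 0.00202), and the near-identical globin copies leave the split among them uncertain. S100a8, a neutrophil protein, was at 383, 90.5 and 159 FPKM in the F1-Control and 3.24, 2.49 and 42 FPKM in the F1-HHcy libraries at Pd3. At Pd7 S100a8 measured 119, 5.77 and 35.5 FPKM in the F1-Control and 0.374, 0.0759 and 6.95 FPKM in the F1-HHcy libraries, and the second F1-Control Pd7 library lay below the third F1-HHcy library (log2 fold change -4.07 ± 0.78 (SE), limma adjusted p = 0.00648). The granulocyte median was -2.59 without the third F1-Control Pd3 library and -2.23 without the first F1-Control Pd7 library. Without the second F1-HHcy Pd3 library this median was -1.38. Of 13 macrophage markers 1 rose (Mertk at 0.53) and 1 fell (Tyrobp at -0.79), and the complement genes C1qa (-0.12), C1qb and C1qc did not pass. Leaving out 1 library at a time took the adjusted p above 0.05 for Mertk (9 of 12, up to 0.099).

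Of 15 surface epithelium markers 4 fell, none rose and 11 did not pass (median -0.25). Those that fell were Krt18 (-1.12), Krt7 (-1.06), Krt8 and Lhx9 (-0.59). Krt8, a keratin of simple epithelia, was at 116, 147 and 133 FPKM in the F1-Control and 58.3, 102 and 88.1 FPKM in the F1-HHcy libraries at Pd3. At Pd7 Krt8 measured 99.4, 129 and 70.3 FPKM in the F1-Control and 33.4, 41.7 and 34.8 FPKM in the F1-HHcy libraries, without overlap (log2 fold change -1.04 ± 0.18 (SE), limma adjusted p = 0.00454). Epcam, an adhesion protein of epithelia and germ cells, fell by 1.15 on the log2 scale, and the keratin Krt19 (-0.81) and the mesothelial marker Upk3b (-0.10) did not pass.

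The enzymes that handle methionine and homocysteine were mostly not called. Of 20 of the methionine cycle and transsulfuration, 1 rose and none fell, with a median log2 fold change of -0.01, and Mat2a (0.21), which makes S-adenosylmethionine, and Ahcy (-0.27), which releases homocysteine, did not pass. The exception was Cbs, which condenses homocysteine with serine and is described here because of its value. Cbs was at 0.196, 0.203 and 0.166 FPKM in the F1-Control and 6.66, 0.345 and 0.38 FPKM in the F1-HHcy libraries at Pd3, where the first F1-HHcy library alone was high, and at 0.357, 0.0618 and 3.29 FPKM in the F1-Control and 10.2, 12.8 and 13.1 FPKM in the F1-HHcy libraries at Pd7, without overlap (log2 fold change 1.92 ± 0.48 (SE), limma adjusted p = 0.0173). With no filter on low values Cbs had an adjusted p of 0.0577. Of 19 folate and serine enzymes Slc19a1 (0.41), the folate carrier, rose and Phgdh (-0.48), which begins serine synthesis, fell. Of 19 DNA methylation genes 4 rose and 2 fell. Dnmt3l, the cofactor of DNA methylation in growing oocytes, was at 0, 0.0104 and 0 FPKM in the F1-Control and 2.17, 0.7 and 0.174 FPKM in the F1-HHcy libraries at Pd3. At Pd7 Dnmt3l measured 0.493, 0.731 and 1.76 FPKM in the F1-Control and 2.73, 2.24 and 5.45 FPKM in the F1-HHcy libraries (log2 fold change 1.02 ± 0.24 (SE), limma adjusted p = 0.0151), and the methyltransferase Dnmt1 (0.68) did not pass. Calls lost in fits that left out 1 library were those of Slc19a1 (8 of 12, up to 0.0843). Without 1 library the call ended for Phgdh (without the first F1-HHcy Pd7 library or the second F1-HHcy Pd7 library, adjusted p up to 0.0649).

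Of 38 glutathione and antioxidant enzymes 2 rose and 11 fell (median -0.26 at both days together, -0.16 at Pd3 and -0.30 at Pd7). Gsr, which regenerates glutathione, was at 35.2, 35.7 and 32.6 FPKM in the F1-Control and 18.8, 21.8 and 21.6 FPKM in the F1-HHcy libraries at Pd3. At Pd7 Gsr measured 21.6, 22.6 and 18.4 FPKM in the F1-Control and 12.2, 10.6 and 15.6 FPKM in the F1-HHcy libraries, separated on both days (log2 fold change -0.69 ± 0.10 (SE), limma adjusted p = 0.00197). Gclm, the modifier subunit of the enzyme that begins glutathione synthesis, was at 43.8, 49 and 36.6 FPKM in the F1-Control and 15.8, 21.6 and 27 FPKM in the F1-HHcy libraries at Pd3. At Pd7 Gclm measured 22.9, 21 and 17.1 FPKM in the F1-Control and 11.8, 10.4 and 13.9 FPKM in the F1-HHcy libraries (log2 fold change -0.85 ± 0.14 (SE), limma adjusted p = 0.00302). Gpx1 (-0.93), which red cells also hold, and the transferase Gstm6 (-1.32), one of a family of close copies, fell, and the secreted enzymes Gpx3 (0.82) and Sod3 (0.73) rose. Of 51 nuclear genes of respiratory complexes I and V, 7 fell, none rose and none had an effect above 0 (median -0.28 at both days together, -0.10 at Pd3 and -0.48 at Pd7), Ndufa1 (-0.63) falling the most. They summed to 12277 FPKM in the second F1-Control Pd7 library, against 8183 in the first and 7835 in the third. Without the second F1-Control Pd7 library the median was -0.19. None of 13 mitochondrially encoded genes passed with limma (1 at an unadjusted p under 0.05 and 0 with limma-voom on fragments, median -0.27). None of 80 ribosomal protein genes passed either, with 1 at an unadjusted p under 0.05, 0 with limma-voom and a median of 0.05. Leaving out 1 library at a time took the adjusted p above 0.05 for Ndufa1 (4 of 12, up to 0.0636).

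Of 20 imprinted growth genes 6 fell and 1 rose. H19 (-1.43 (limma adjusted p = 0.0163)), Igf2 (-1.31 (limma adjusted p = 0.0159)), Dlk1 (-1.20), Cdkn1c (-1.02), Peg3 (-0.95) and Mest (-0.81) fell and Nnat (0.78) rose. Of 16 retinoid genes the binding protein Crabp1 (-1.60), the retinoic acid-making enzyme Aldh1a2 (-0.88) and the aldehyde dehydrogenase Aldh1a7 (-1.04) fell. Crabp2 (0.83) and the receptor Rarg (0.51) rose. Of 15 Bcl2 family genes the pro-death members Pmaip1 (-0.77), Bbc3 (-0.57) and Bax (-0.34) fell and the oocyte gene Bcl2l10 (1.84) rose. Of 29 cholesterol genes the exporter Abca1 (0.66) and the HDL receptor Scarb1 rose and Insig1 (-0.57) and Mvd (-0.48) fell. Of 36 fatty acid genes 6 rose, Pparg (1.14) the most, and 2 fell, Slc27a2 (-1.26) the most. Of 35 S phase and mitosis genes 3 fell (Ube2c, Rrm2 and Ccne1) and none rose. In fits without 1 library, calls were lost for Dlk1 (10 of 12, up to 0.0938), Peg3 (9 of 12, up to 0.0786), Nnat (4 of 12, up to 0.0577), Bax (7 of 12, up to 0.0774), Rrm2 (5 of 12, up to 0.0589) and Ccne1 (4 of 12, up to 0.06). The omission of 1 library was enough to end the call for Mvd (without the first F1-HHcy Pd7 library, adjusted p up to 0.051).

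**Figure D3:**
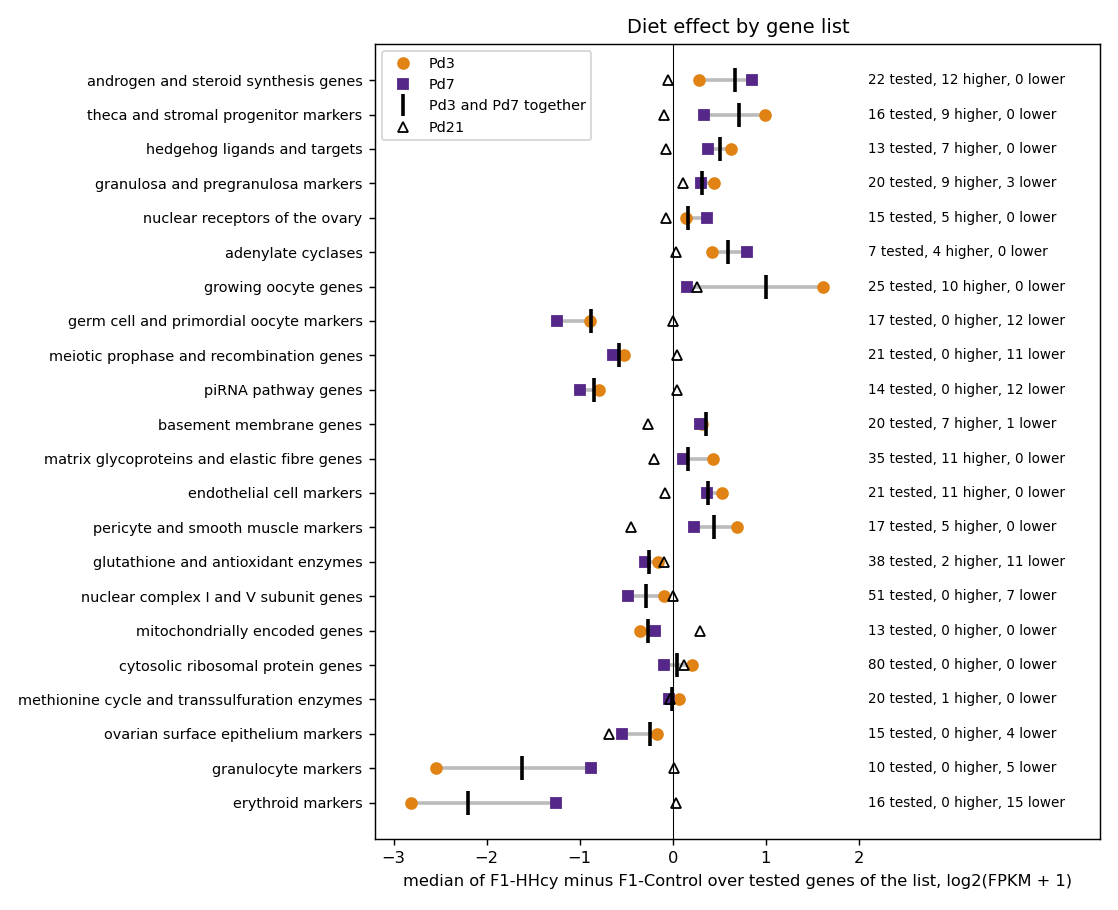
Median log2 fold change (F1-HHcy against F1-Control) of 22 gene lists at Pd3, at Pd7, at both days together and at Pd21, with the number of tested members called higher and lower in the common fit beside each. Erythroid, granulocyte and germ cell lists lie below 0 at Pd3 and Pd7 and growing oocyte, steroid and theca lists above 0, while most Pd21 medians lie nearer to 0.

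The promoters of called genes were searched for 3 short motifs on both strands, among the 11157 tested genes matched by symbol to a RefSeq promoter of 300 bases. The E box CANNTG stood in 64.0% of all these promoters, 70.9% of those of genes called higher and 68.1% of those of genes called lower. It stood in all 17 matched promoters of growing oocyte genes, in 15 of 16 (93.8%) of germ cell markers, in 16 of 20 (80.0%) of meiotic genes and in 9 of 15 (60.0%) of steroid synthesis genes. For the steroid synthesis genes this share was below that of all promoters. The cAMP response core TGACG stood in 30.5% of all, 18.5% of higher and 28.3% of lower genes' promoters, and the Nr5a1 motif AAGGTCA in 3.12%, 3.69% and 2.69%. These are matches of letters and were not tested as sites.

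Genes whose diet effect was not common to the days were looked for with an interaction term, and 72 of 13998 (0.514%) had an adjusted p under 0.05 (limma). For 50 of them the log2 fold change, sign included, was lower at Pd7 than at Pd3, whether it shrank or turned negative. Of the 72, 10 were among the genes called higher and 1 among those called lower. The oocyte genes Dppa5a, Khdc1a, Zp2 and Zp3 were higher in F1-HHcy at Pd3 and lower or overlapping at Pd7. Dppa5a, a pluripotency-associated gene of germ cells, was at 41.4, 52.3 and 49.8 FPKM in the F1-Control and 124, 167 and 139.7 FPKM in the F1-HHcy libraries at Pd3. At Pd7 Dppa5a measured 157, 236 and 126 FPKM in the F1-Control and 112, 105 and 96.5 FPKM in the F1-HHcy libraries, so the order of the diets turned over without overlap on either day. Zp2, of the zona pellucida, was at 202, 226 and 321 FPKM in the F1-Control and 488, 728 and 444 FPKM in the F1-HHcy libraries at Pd3. At Pd7 Zp2 measured 591, 906 and 578 FPKM in the F1-Control and 301, 250.4 and 359 FPKM in the F1-HHcy libraries, likewise turned over (interaction adjusted p 0.0192 for Zp2 and 0.0428 for Zp3, limma). Within the F1-Control group Zp2 was higher at Pd7 than at Pd3, and within the F1-HHcy group it was higher at Pd3. Pcp4, which modulates calmodulin, was at 3.06, 2.44 and 2.35 FPKM in the F1-Control and 5.72, 12.8 and 4.34 FPKM in the F1-HHcy libraries at Pd3. At Pd7 Pcp4 measured 15.2, 20.6 and 11.9 FPKM in the F1-Control and 1.97, 3.62 and 2.53 FPKM in the F1-HHcy libraries. The count of 72 rested on single libraries: it was 0 without the first (1747 at an unadjusted p under 0.05) and 0 without the second F1-Control Pd3 library (2029 unadjusted), 1, 5 and 11 without the second F1-HHcy Pd3, second F1-HHcy Pd7 and first F1-HHcy Pd7 libraries, 36 without the second F1-Control Pd7 library, and 167, 197 and 447 without the first F1-Control Pd7, the first F1-HHcy Pd3 and the third F1-HHcy Pd3 library.

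**Figure D4:**
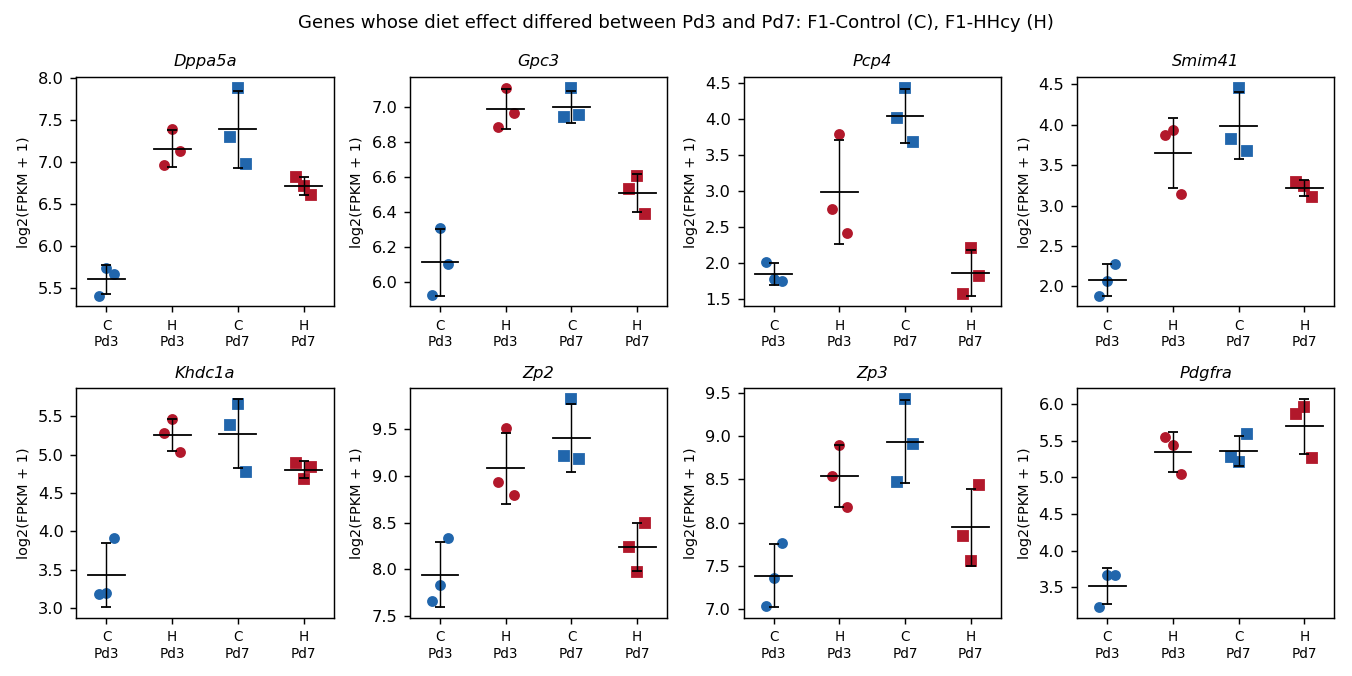
Level, as log2(FPKM + 1), of Dppa5a, Gpc3, Pcp4, Smim41, Khdc1a, Zp2, Zp3 and Pdgfra in the 12 libraries, one point per library, with lines at group means and bars for the SD. In the first 7 genes the F1-HHcy points lie above the F1-Control points at Pd3 and mostly below them at Pd7. The F1-HHcy points of Pdgfra lie above the F1-Control points at Pd3 and overlap them at Pd7.

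The genes of the common effect were then followed to Pd21 in a fit of all 18 libraries, where age and batch cannot be told apart but the diets are compared within a batch. At Pd21 the median log2 fold change was 0.07 for the 1087 genes called higher, of which 640 were above 0, and -0.03 for the 1446 called lower, of which 843 were below 0. Of all 13998 genes tested, 6729 were above 0 and 7262 below 0 at Pd21. The Pd21 effect differed from the mean of the Pd3 and Pd7 effects for 635 of 14607 genes (4.35%), including 132 of the genes called higher and 125 of those called lower. Because the called genes were chosen for a large effect at Pd3 and Pd7, the direction of this difference is largely fixed by the choice. For comparison, the medians of the change from Pd3 to Pd7 over both diets were 0.57 for the genes called higher and -0.45 for those called lower, from the same 12 libraries. Cbs had a log2 fold change of -1.29 at Pd21 (adjusted p of the difference 0.0166, limma). Tppp3, a tubulin-binding protein of cilia, was at 157, 54.1 and 82.7 FPKM in F1-Control and 9.63, 6.59 and 11 FPKM in F1-HHcy libraries of Pd21, and Nme5, also of cilia, at 53.1, 20.8 and 34.5 and 3.25, 2.82 and 3.96 FPKM. Both were lower in every F1-HHcy library of Pd21. For 12 of 16 oviduct epithelium markers the Pd21 effect differed from the mean of the Pd3 and Pd7 effects. The median log2 fold change of the 16 was -2.0 at Pd21 and -0.08 in the common effect. The part of oviduct tissue in this was not tested. The count of 635 was 1247 without the third F1-HHcy Pd3 library, and 214 without the first, 414 without the second and 188 without the third F1-Control Pd21 library.

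**Figure D5:**
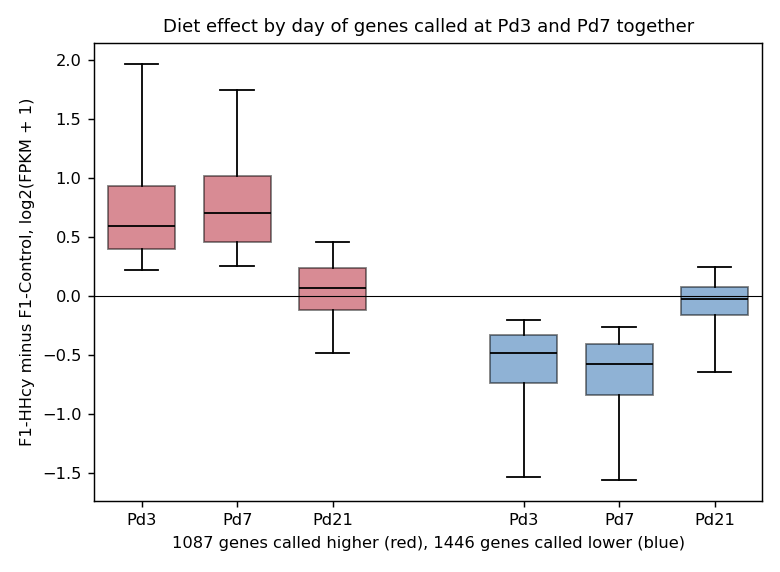
Diet effect (log2 fold change) at Pd3, Pd7 and Pd21 of the 1087 genes called higher and the 1446 called lower in the common fit, as boxes at the quartiles with whiskers from the 5th to the 95th percentile. The boxes of both sets leave 0 at Pd3 and Pd7, which chose them, and straddle 0 at Pd21.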

How the data were processed

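Whole-ovary poly-A RNA was sequenced from stranded libraries, and whether a library held 1 pup or a pool is not given, so p-values measure the spread between libraries, which may be technical. The submitters' processing notes name FastQC 0.11.9, Trimmomatic 0.39, STAR 2.7.9a, featureCounts 2.0.1 of Subread, DESeq2 1.36.0 and GRCm38/mm10, without roles or order, and the annotation and the use of strand in counting are not given in the sources used here. The deposited values, 1 for each of 30172 gene symbols in a library, came from the authors normalized and were read here as FPKM because 1 length per gene and 1 depth per library turned 99.989% of 27294 genes into whole fragments (within 0.02 of a fragment). These made up at least 99.998% of each library's total.

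A gene entered the fit with 1 FPKM or more in 3 or more of the 12 libraries. Low genes such as Oog3, Plin1 and Cbs met this only through F1-HHcy libraries, so list counts with low genes are not independent of the filter. Levels were fitted on log2(FPKM + 1) with limma 3.58.1 (eBayes with a trend) in R 4.3.3, on day and diet, with Benjamini-Hochberg adjustment over all tested genes and a threshold of 0.05. The pseudocount of 1 understates the change of low genes. Python 3.11.15 (pandas 2.3.3, numpy 2.4.6) made the tables and matplotlib 3.10.9 the figures, and the fit was tested on simulated data. Members and gene lists were chosen with earlier results of these data known, and many lists share genes. Named genes were the 10 largest rises and falls of characterised genes without overlap on either day and at 5 FPKM or more in the higher diet, the 3 most abundant called genes a direction, up to 4 called members a list by p and up to 3 by level, the 5 leading interaction and Pd21 genes, and role-defining members; other called members of a list are named with their value, and these, like Cbs and Fos, were chosen after their values were seen. Alternatives were a pseudocount of 0.1, other filters, all 18 libraries, median-ratio scaling, no mitochondrial or hemoglobin genes, the study's unadjusted criterion, averaged days, a replicate block and each library left out. Limma-voom on the recovered fragments was chosen after seeing the data. A few members of the lists are counted but not reported by name.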

Additional observations from a re-analysis of the deposited data

Results flagged for a closer look

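The diet effect differed between Pd3 and Pd7 for 72 genes by the interaction test of limma (adjusted p under 0.05). The log2 effect at Pd7 minus that at Pd3 was -2.24 for Dppa5a (1.56 at Pd3 and -0.68 at Pd7), -1.37 for Gpc3, a cell surface proteoglycan (0.88 and -0.49), -3.32 for Pcp4 (1.14 and -2.18), -2.34 for Smim41 (1.57 and -0.77) and -2.29 for Khdc1a, an oocyte gene (1.82 and -0.47). The adjusted p was 0.0192 for each of these genes. Without the first F1-Control Pd3 library it was 0.0775 and without the second 0.0527 for all 5 genes, without the second F1-HHcy Pd3 library 0.0583 for all but Pcp4, and without the second F1-HHcy Pd7 library 0.0634 for Smim41 and Khdc1a.

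The diet effect at Pd21 differed from the mean effect at Pd3 and Pd7 most clearly for 5 of the called genes. Since called genes had an effect at Pd3 and Pd7 by choice, the sign of such a difference is partly fixed. The difference on the log2 scale was -4.05 for Tppp3 (adjusted p 1.48e-05, limma), -2.04 for Tm4sf1 (1.57e-05), -2.25 for Nme5 (0.000212), -3.78 for Hdc, which makes histamine (0.000305), and -2.81 for Ces1d (0.000315). Hdc at Pd21 measured 61.6, 20.6 and 84.2 FPKM in F1-Control and 8.43, 3.56 and 6.74 FPKM in F1-HHcy libraries, without overlap, whereas at Pd7 it measured 2.55, 3.10 and 2.90 and 7.65, 7.16 and 5.93 FPKM in the other order. Ces1d and Tm4sf1 were themselves called in the common fit by a narrow margin (0.43 (adjusted p = 0.0431) and 0.46 (adjusted p = 0.0374), log2 fold change with limma) and lost that call in most fits that left out a library.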

How the results depend on the processing

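No named called gene changed direction in any alternative, and of the 252 named called genes 131 passed the threshold in all 22 alternatives and 183 in every fit that left out a library. With no filter on low values (29260 genes tested) 897 genes were lower, 415 higher by over 0.58 and 401 lower by over 0.58, with 32 in the interaction. With the study's unadjusted criterion 701 genes were lower, 1625 passed in the interaction and 1911 in the Pd21 difference, and with FPKM of 1 in at least 6 libraries 246 passed there. The replicate block gave 649 higher, 824 lower and 21 in the interaction. The labels do not say whether same-numbered libraries are paired. Deviations of same-numbered libraries from their group means correlated at -0.184 to -0.125 among Pd3 libraries, -0.101 to 0.084 among Pd7 and -0.308 to -0.15 among Pd21 libraries. Differently numbered libraries were not compared in this way, so these values cannot decide whether samples were paired. Limma-voom on fragments called 1217 higher and 1280 lower, 1009 and 1218 of them shared with the reported calls. Of the called genes 42.9% were higher, 48.9% after median-ratio scaling and 36.4% without mitochondrial and hemoglobin genes (1025 higher and 1791 lower), whose removal rescales the rest. Leaving out each library in turn gave 681 to 1493 higher, 835 to 1872 lower, 483 to 852 and 433 to 809 beyond 0.58 in size, 0 to 447 in the interaction and 188 to 1247 in the Pd21 difference. The causes of these changes were not tested. Averaged days could not be applied to the interaction or the Pd21 difference.

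With 3 libraries per diet and day, a gene named for 1 day rests on 6 libraries, and values under 1 FPKM are compressed by the pseudocount.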

Other observations

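Some genes outside the groups above had wide separations. Crygb, a crystallin gene, was at 43.3, 47.7 and 34.8 FPKM in the F1-Control and 3.70, 9.17 and 21.6 FPKM in the F1-HHcy libraries at Pd3. At Pd7 Crygb measured 17.7, 30.1 and 6.35 FPKM in the F1-Control and 0.417, 1.13 and 0.597 FPKM in the F1-HHcy libraries, without overlap on either day (log2 fold change -2.66 ± 0.40 (SE), limma adjusted p = 0.00242). Th, tyrosine hydroxylase of catecholamine synthesis, was at 26.6, 27 and 35.2 FPKM in the F1-Control and 9.39, 17.3 and 22.1 FPKM in the F1-HHcy libraries at Pd3. At Pd7 Th measured 20.5, 21.2 and 16 FPKM in the F1-Control and 5.16, 5.82 and 5.27 FPKM in the F1-HHcy libraries (log2 fold change -1.27 ± 0.19 (SE), limma adjusted p = 0.0025), while Tubb3 rose (0.97) and the other 7 of 9 neuronal and glial markers did not pass. The actin-binding thymosins Tmsb10 (714 to 1357 FPKM (median 1143) in F1-Control and 466 to 1053 FPKM (median 590.5) in F1-HHcy libraries, log2 fold change -0.72 ± 0.17 (SE), limma adjusted p = 0.0133) and Tmsb4x (log2 fold change -0.82 ± 0.22 (SE), limma adjusted p = 0.0232) were among the most abundant genes called lower, and Tceal9 (log2 fold change 0.50 ± 0.15 (SE), limma adjusted p = 0.0387) among the most abundant called higher. Leaving out 1 library at a time took the adjusted p above 0.05 for Tubb3 (8 of 12, up to 0.0693) and Tceal9 (8 of 12, up to 0.087). Leaving out a single library ended the call for Tmsb4x (without the first F1-HHcy Pd7 library or the first F1-Control Pd7 library, adjusted p up to 0.0534).

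Immediate early genes varied within groups. The 25 listed summed to 475, 564 and 461 FPKM in the F1-Control and 579, 391 and 4069 FPKM in the F1-HHcy libraries at Pd3. At Pd7 the sums were 209, 140 and 131 FPKM in the F1-Control and 157, 120 and 586 FPKM in the F1-HHcy libraries. The third F1-HHcy library was thus the highest on each day. Fos, chosen after its values were seen, measured 818 FPKM in the third F1-HHcy Pd3 library against 44.5, 53.6 and 38.4 FPKM in the F1-Control Pd3 libraries, and 93.5 FPKM in the third F1-HHcy Pd7 library against 4.28, 1.41 and 1.58 FPKM in the F1-Control Pd7 libraries (log2 fold change 1.5 ± 0.88 (SE), limma adjusted p = 0.245). Fosl2 was the member called among 20 (0.48), and it was named after its value was seen. Of 14 clock genes Bhlhe41 fell (-1.01), of 18 Hox genes Hoxd9 rose (0.36), and of 20 glycolysis enzymes Pfkp rose (0.51) and Gpi1 fell (-0.43). Of 23 ER stress genes Asns fell (-0.44) and Vldlr rose (0.93), and the sensor targets Hspa5 (0.19) and Atf4 (0.01) did not pass. Of 15 growth factor receptor genes 5 rose and 1 fell, of 11 testis pathway genes 1 rose and 2 fell, and of 6 MHC class II and lymphocyte markers none rose and 1 fell. In fits without 1 library, calls were lost for Fosl2 (5 of 12, up to 0.0691), Bhlhe41 (9 of 12, up to 0.0957), Hoxd9 (6 of 12, up to 0.0688) and Asns (7 of 12, up to 0.0806). The omission of 1 library was enough to end the call for Gpi1 (without the first F1-HHcy Pd7 library or the second F1-HHcy Pd7 library, adjusted p up to 0.0537).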
